A study of Mus musculus with 6 samples.

Results

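The genes described are the subunits of the mitochondrial respiratory chain and ATP synthase, in epithelium of the mouse small intestine. Members were chosen by gene symbol (Nduf, Sdh, Uqcr, Cyc1, Cox4 to Cox8, Atp5 and the protein genes of mitochondrial DNA, without pseudogenes named -ps), which gave 99 of 46078 genes in the count table. They carry 98 distinct symbols, since Uqcrc1 is listed under a second gene ID that held 0 counts. Of the 99 members, 86 are nuclear and 13 are mitochondrially encoded. Complex I had 35 nuclear and 7 mitochondrial members, complex II 4 nuclear, complex III 10 nuclear and 1 mitochondrial, complex IV 20 nuclear and 3 mitochondrial, and ATP synthase (complex V) 15 nuclear and 2 mitochondrial. Ndufa4, named for complex I but a subunit of complex IV, and its paralogue Ndufa4l2 were counted with complex IV. The symbol pattern also took in Atp5s and Atp5sl, which are not subunits and were kept apart.

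The respiratory chain passes electrons from NADH and succinate to oxygen, pumps protons across the inner mitochondrial membrane and thereby drives ATP synthase. Complexes I, III, IV and V each combine proteins encoded in the nucleus with proteins encoded in mitochondrial DNA, whereas complex II (succinate dehydrogenase) is wholly nuclear. Nuclear subunits are transcribed gene by gene, while the mitochondrial genes are cut from long transcripts that span the mitochondrial genome. In the gut, respiration supplies absorptive cells with ATP, and the balance of glycolysis and respiration differs between crypt and villus cells.

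RNA was sequenced from EpCam-positive, CD45-negative cells sorted from the small intestine of untreated C57BL/6JRj mice, 3 young (2 to 3 months old) and 3 aged (20 to 22 months old). EpCam is an epithelial adhesion molecule and CD45 the common leukocyte antigen. Libraries were made from poly(A) RNA, and the design text places the cells in the proximal part of the gut of 3 mice per age, so each library was taken as 1 mouse. Neither batch nor sex is given in the labels, and the replicate numbers only follow record order, so p-values measure the spread between these libraries only. Total counts ran from 41479573 to 58989166 per library. Values are CPM, that is counts divided by the library total and multiplied up to one size for all libraries, with TMM factors that allow for a few dominant genes. A gene with 0 counts could lie at up to 3 counts, or 0.0507 to 0.0720 CPM over the 6 libraries, counting error only. The epithelial marker list stood between 11964 and 13692 summed CPM and the leukocyte list between 3.89 and 5.11 summed CPM in all 6 libraries. In bulk RNA, fewer cells of a type and less RNA per cell cannot be told apart.

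Of the 87 members that passed the filter on low counts, 1 was called lower in aged mice (1 of 87; 0.784% of all 14923 genes tested were called lower) and 0 were called higher (0.623% of all genes). Calls are from the quasi-likelihood test of edgeR, with Benjamini-Hochberg adjustment over all genes tested and a threshold of 0.05. At an unadjusted p below 0.05, edgeR gave the same count of 1 of the 87, where 9.23% of all genes lay below that value. DESeq2 and limma also called 1 member each. The 12 members that were not tested are 6 mitochondrial genes, the second Uqcrc1 entry, and the isoforms Cox4i2, Cox7b2, Cox8b, Cox8c and Ndufa4l2. The called gene was Cox6b2, a testis-enriched isoform of subunit 6B of cytochrome c oxidase (complex IV). The 80 tested nuclear members had a median log2 fold change (aged over young) of -0.02, with 46 below 0 and 34 above, beside a median of 0.01 and 48.2% below 0 over all genes tested. The 7 tested mitochondrial members were all below 0, with a median of -0.19, but their standard errors ran from 0.33 to 0.44 and their direction turned with 1 library, as given below.

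Among the 13 mitochondrially encoded members, 7 had counts in every library and 6 were at or near 0. The 6 were mt-Co2 and mt-Co3 (subunits of complex IV), mt-Atp6 and mt-Atp8 (ATP synthase) and mt-Nd3 and mt-Nd4l (complex I). All 6 lie in one stretch of the mitochondrial genome, between mt-Co1 and mt-Nd4. Over the 6 libraries together mt-Co2 held 1 count, mt-Atp6 1 count and the other 4 held 0, while mt-Co1 held 1653984 and mt-Nd4 636721. These 6 genes were therefore not tested, and complex V had no measured mitochondrial member.

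Of these 6 genes, 5 have a near-identical nuclear copy on chromosome 1 between 24611535 and 24616197 (minus strand, GRCm38), annotated as unprocessed pseudogenes. The share of a gene's 50-base words that also occur in a transcript of another gene was 100% for mt-Co2, 99.9% for mt-Co3, 99.5% for mt-Atp6, 98.8% for mt-Nd4l and 98% for mt-Nd3. It was 62.2% for mt-Nd4 and 51.1% for mt-Co1, which are copied there in part, and 0% for mt-Nd1, mt-Nd6 and mt-Cytb. The sixth gene, mt-Atp8, shared no such word with an annotated transcript and was at 0 counts as well. Only annotated transcripts were searched, so a copy of mt-Atp8 outside them would not be seen. On chromosome 1 the copy of mt-Atp6 reaches 24614651 and that of mt-Co2 begins at 24614885. The bases between these 2 copies were not searched. The copies took up few counts: Gm28661, the copy of mt-Co2, held 30 in all, and the copies of mt-Co3 and mt-Atp6 held 6 each. How reads with several matches were counted is not given in the sources used here, and its part in the zeros was not tested. The start of mt-Nd3 (mitochondrial genome, chrM:9459-9519, plus strand) and of its copy Gm28438 (chr1:24613059-24613119, minus strand) are printed to show how little separates gene and copy. Their only difference over 345 aligned bases is T3C, in capitals, counted from the first base of mt-Nd3 with the base of mt-Nd3 first.
mt-Nd3: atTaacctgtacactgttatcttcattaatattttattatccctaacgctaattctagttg
Gm28438: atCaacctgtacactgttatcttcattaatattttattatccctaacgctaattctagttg

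The same check was made on the coding sequences of the nuclear members, since many respiratory genes have processed pseudogenes. In 5 nuclear members at least 95% of the 50-base words of the coding sequence occurred in another gene: Ndufb4 (complex I), Cox7c (complex IV), and Atp5g1, Atp5g2 and Atp5l (membrane part of ATP synthase). All 5 had low levels, from 0.120 to 4.27 CPM per kilobase of exon, with a median of 3.38. The other 75 tested nuclear members had a median of 115.7 CPM per kilobase, and 3 of them lay at or below 4.27, namely Cox6a2, Cox6b2 and Atp5s, which shared no coding word with another gene. Atp5g1 and Atp5g2 encode the same mature c subunit as Atp5g3, which shared no word with another gene and stood at 318.3 CPM per kilobase. Cox7c, a subunit found in all tissues, stood at 4.27 CPM per kilobase, while Cox8a stood at 593.9. The levels of these 5 genes are thus uncertain, and the threshold was chosen after the values were seen. Their part in each summed level is small as measured, but any reads not counted for them would be missing from those sums.

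**Figure D1:**
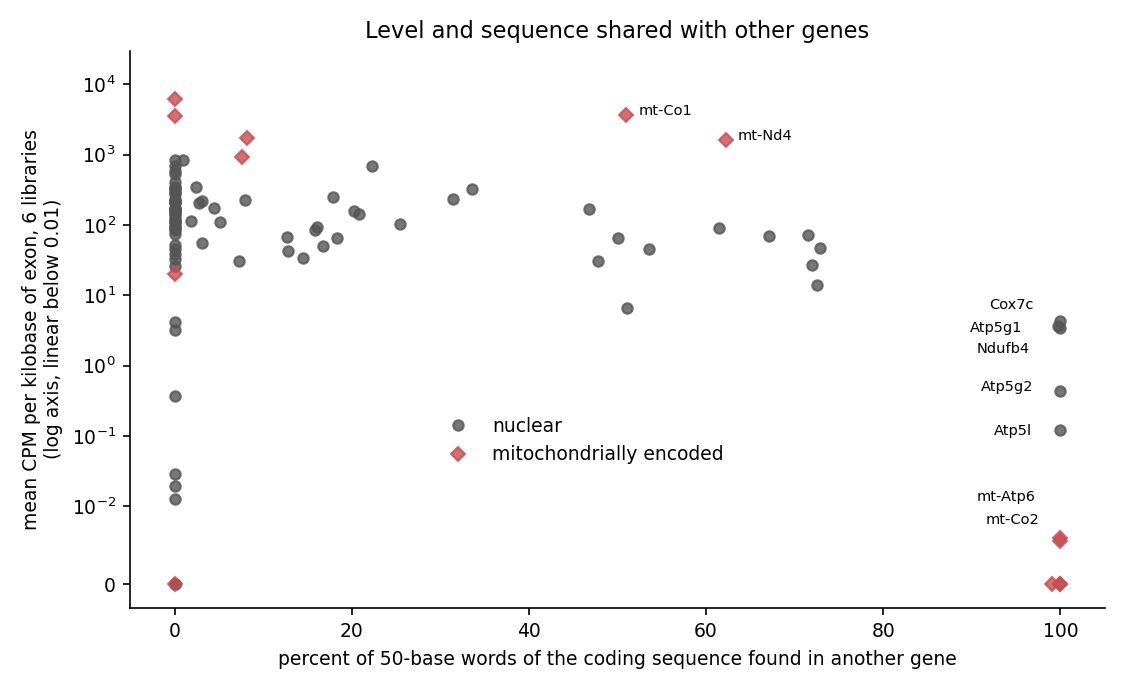
Mean CPM per kilobase of exon over the 6 libraries (log axis, linear below 0.01) against the percent of 50-base words of the coding sequence that occur in another gene, 1 point per member. The 5 labelled nuclear members and 5 mitochondrial members at the right edge lie at or below 4.27 CPM per kilobase, whereas mt-Co1 and mt-Nd4, shared in part, lie higher than all nuclear members.

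The 7 measured mitochondrial genes differed more between libraries of one age than between the ages. In record order, which alternates young and aged, all mitochondrial genes took 3.69, 2.88, 2.07, 2.04, 1.48 and 1.54% of counts. Differences between mice and differences in handling along that order cannot be told apart here. mt-Cytb, the only mitochondrial subunit of complex III, held 11886, 6841 and 4422 CPM in the young and 8767, 5989 and 4700.5 CPM in the aged libraries. mt-Co1, the catalytic subunit of complex IV, held 9836, 4918 and 3572 CPM in the young and 7355, 5096 and 3589.9 CPM in the aged libraries. In both genes young replicate 1 was highest, aged replicate 1 next, and the age groups overlapped throughout. Their log2 fold changes were -0.25 ± 0.40 for mt-Cytb and -0.19 ± 0.43 for mt-Co1 (SE; edgeR adjusted p = 0.930 and 0.959).

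The membrane arm of complex I is built on the mt-Nd proteins. mt-Nd1 held 5141, 2753 and 2399 CPM in young and 4478, 3146 and 2314 CPM in aged libraries. mt-Nd4 held 3679, 2103 and 1299 CPM in young and 2869.8, 1856 and 1355 CPM in aged libraries. Young replicate 1 and aged replicate 1 were again the highest pair. mt-Nd2 ranged from 1209 to 2623 CPM in young and from 1237 to 2279 CPM in aged libraries, and mt-Nd5 from 1062 to 2658 and from 1193 to 2247 CPM. In these poly(A) libraries mt-Nd6, the only protein gene on the other strand of the mitochondrial genome, held far fewer counts. How fully poly(A) selection captures its transcript was not tested, so these values may not be its full level. mt-Nd6 held 18.3, 10.2 and 7.23 CPM in young and 11.2, 6.82 and 8.95 CPM in aged libraries. Its fold change was the most negative of the 7 (log2 -0.41 ± 0.34 SE, edgeR adjusted p = 0.830).

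In all 7 genes young replicate 1 ranked first and aged replicate 1 second of the 6 libraries. Young replicate 3 ranked last in 5 of the 7. The highest library exceeded the lowest 2.17-fold to 2.83-fold, with a median of 2.69-fold, where the nuclear members had a median of 1.18-fold and all tested genes of at least 5 CPM one of 1.24-fold. Without young replicate 1 all 7 fold changes turned positive, from 0.04 (mt-Nd6) to 0.37 (mt-Nd5) on the log2 scale. Without aged replicate 3, mt-Nd1, mt-Nd2, mt-Nd5 and mt-Co1 also turned positive. The 95% intervals of all 7 reached beyond 1.25-fold in both directions, mt-Cytb for example running from 0.430-fold to 1.64-fold, so a change of that size was not detectable with 3 libraries per age.

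**Figure D2:**
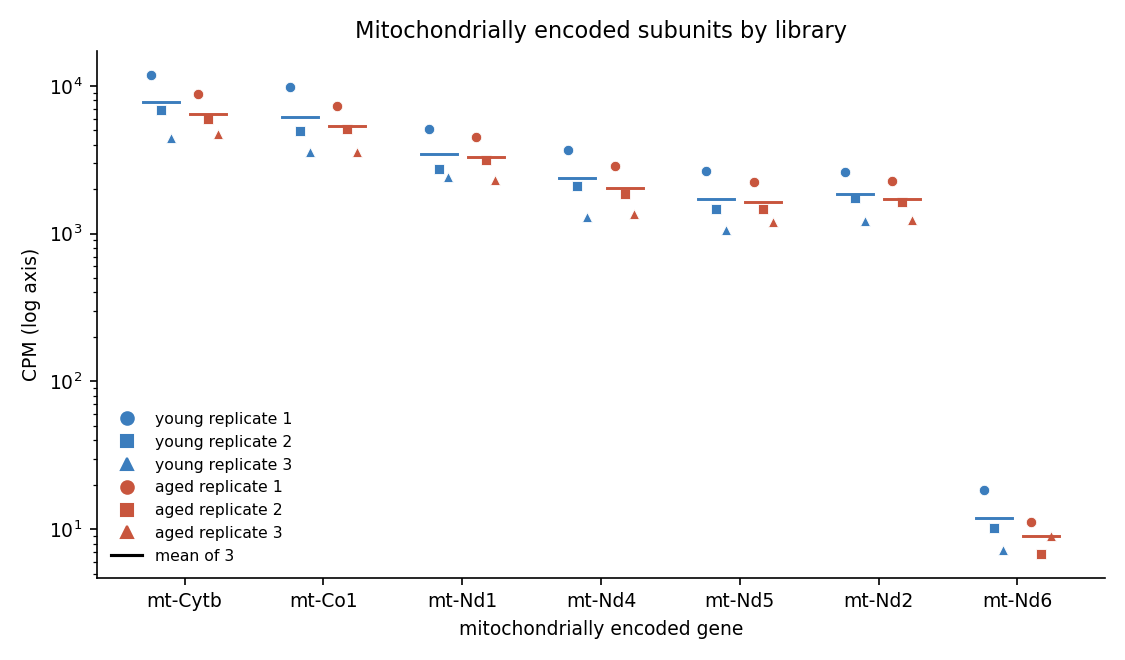
CPM (log axis) of the 7 measured mitochondrially encoded genes in each of the 6 libraries, with lines at the mean of 3. Young replicate 1 is highest and aged replicate 1 second in each gene, and the age groups overlap in all 7.

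The relative make-up of the mitochondrial messenger RNA varied less than its amount. mt-Cytb made up 31.2 to 34.5% of the summed CPM of the 7 measured genes, mt-Co1 24.8 to 27.4% and mt-Nd1 13.9 to 17.2% over the 6 libraries. The small share of mt-Nd6 varied more, from 0.0355 to 0.0621%. mt-Co1 and mt-Nd4 share part of their words with nuclear copies, so their counts and all these shares are uncertain. The mitochondrial ribosomal RNAs, which come from the same genome, were not called. mt-Rnr1 held 874.8, 362.1 and 363.7 CPM in young and 578.0, 547.7 and 441.1 CPM in aged libraries, so that young replicate 1 was highest there too and the groups overlapped. Poly(A) selection captures ribosomal RNA incompletely, and these values are not its full level.

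Summed by complex, nuclear subunits hardly differed between libraries while mitochondrial ones did. The nuclear members together held 24849.8, 22862 and 24987 CPM in young and 24036, 23845 and 23955 CPM in aged libraries, a mean of 24233 ± 1189 against 23945 ± 95.5 (SD, n = 3 each). The mitochondrial members together held 35842, 19839 and 13971 CPM in young and 28006, 19191 and 14398 CPM in aged libraries. Mitochondrial sums thus lay above the nuclear sums in young replicate 1 and aged replicate 1 and below them in the other 4 libraries. Within complex I, the young libraries had a mitochondrial to nuclear ratio of summed CPM of 2.61, 1.65 and 1.07 and the aged libraries one of 2.18, 1.52 and 1.19. For complex III it was 3.41, 2.12 and 1.25 against 2.52, 1.75 and 1.36, and for complex IV 2.56, 1.42 and 0.941 against 2.01, 1.45 and 1.04. In each complex the aged values lay inside the range of the young ones. The ratio between genomes therefore varied over 2-fold among young libraries, and no shift with age beyond that spread was seen. For complex IV only mt-Co1, and for complex III only mt-Cytb, enters the mitochondrial sum. In complex I 5 of the 7 mitochondrial members were measured, and in all complexes together 7 of the 13. Sums and ratios between the genomes therefore depend on which mitochondrial genes could be counted.

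**Figure D3:**
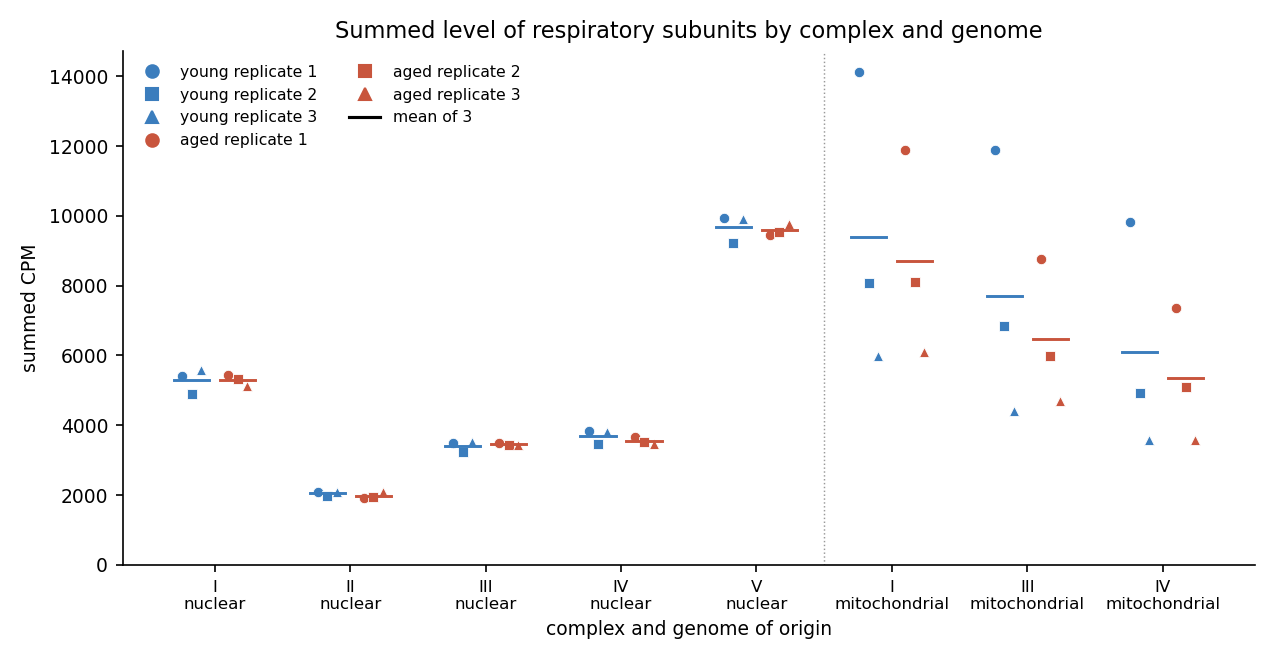
Summed CPM of the members by complex and genome of origin in each library, from 0, with lines at the mean of 3. Nuclear sums stay close together, for example 9220 to 9939.8 for complex V, while the mitochondrial sum of complex I runs from 5976 to 14120.2.

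Nuclear complex I members, the largest group, were even: 35 were tested, 0 were called, and 20 lay above and 15 below 0, with a median log2 fold change of 0.01. The 7 core subunits, most of which hold the flavin, the iron-sulphur clusters or the quinone site, had a median of 0.03, and the 28 accessory subunits 0.00. Ndufb9, an accessory subunit of the membrane arm, stood at 253.5 ± 24.3 against 236.6 ± 10.1 CPM. Ndufa11, an accessory subunit of the membrane arm, had the most positive difference among the nuclear members of the complex (98.5 ± 9.23 against 108.9 ± 11.1 CPM, log2 0.14 ± 0.10). Ndufb4, whose coding sequence is shared with other genes, had the most negative among the nuclear members (6.80 ± 0.84 against 6.14 ± 0.26 CPM, log2 -0.15 ± 0.14). Ndufs4, an accessory subunit of the peripheral arm, stood at 94.4 ± 6.03 against 85.8 ± 4.23 CPM. In 29 of the 35 genes the 95% interval lay within 1.25-fold of no change.

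The 4 subunits of complex II were not called, and all 4 fold changes were slightly below 0, with 95% intervals within 1.25-fold. Sdha, the flavoprotein that oxidises succinate, held 962.9, 911.8 and 915.0 CPM in young and 850.7, 863.5 and 958.0 CPM in aged libraries (log2 -0.06 ± 0.08). Sdhb, the iron-sulphur subunit, stood at 374.1 ± 28.5 against 365.0 ± 4.52 CPM. Of the membrane anchors, Sdhc stood at 324.9 ± 13.0 against 313.8 ± 12.4 CPM, and Sdhd held 430.9, 406.8 and 442.0 CPM in young and 399.4, 422.4 and 436.1 CPM in aged libraries. The age groups overlapped in each of the 4 genes.

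In complex III, 9 of the 10 nuclear members were tested and 0 were called, with a median of -0.00. Here the age groups did not overlap in Cyc1 and in Uqcrfs1. Cyc1, the cytochrome c1 heme protein, held 616.0, 616.8 and 635.3 CPM in young and 665.2, 666.2 and 661.3 CPM in aged libraries. All aged values lay above all young ones, at a log2 fold change of 0.09 ± 0.06 (SE, edgeR adjusted p = 0.797). Uqcrfs1, the Rieske iron-sulphur protein, held 303.8, 310.2 and 303.2 CPM in young and 292.1, 285.2 and 291.6 CPM in aged libraries. All aged values lay below, at -0.08 ± 0.06 (edgeR adjusted p = 0.824). Over all 87 tested members the groups stood apart with aged higher in 1 (Cyc1; 6.3% of all genes tested) and with aged lower in 2 (Cox6b2 and Uqcrfs1; 7.49%), shares below those of all genes. The small subunits Uqcr10 and Uqcr11, the most abundant nuclear members of the complex per kilobase, stood at 227.9 ± 11.4 against 242.3 ± 21.5 CPM and 200.7 ± 23.8 against 220.1 ± 31.2 CPM, and Uqcrq at 287.1 ± 29.4 against 313.1 ± 30.5 CPM.

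ATP synthase had 15 tested nuclear members, 0 called and a median of -0.02. Atp5b, the catalytic beta subunit of the F1 head, held 3673, 3484 and 3582 CPM in young and 3422, 3497 and 3669 CPM in aged libraries. Atp5a1, the alpha subunit, held 2690.2, 2547 and 2707 CPM in young and 2451, 2573 and 2782 CPM in aged libraries. Both groups overlapped, with log2 fold changes of -0.02 ± 0.08 and -0.03 ± 0.08. Per kilobase of exon these were the most abundant nuclear members, at 838.9 and 837.3 CPM per kilobase. The 5 subunits of the F1 head had a median of -0.02 and the 10 of the stalk and membrane part -0.01. Atp5s and Atp5sl stood at log2 -0.11 and -0.10 and were not called.

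**Figure D4:**
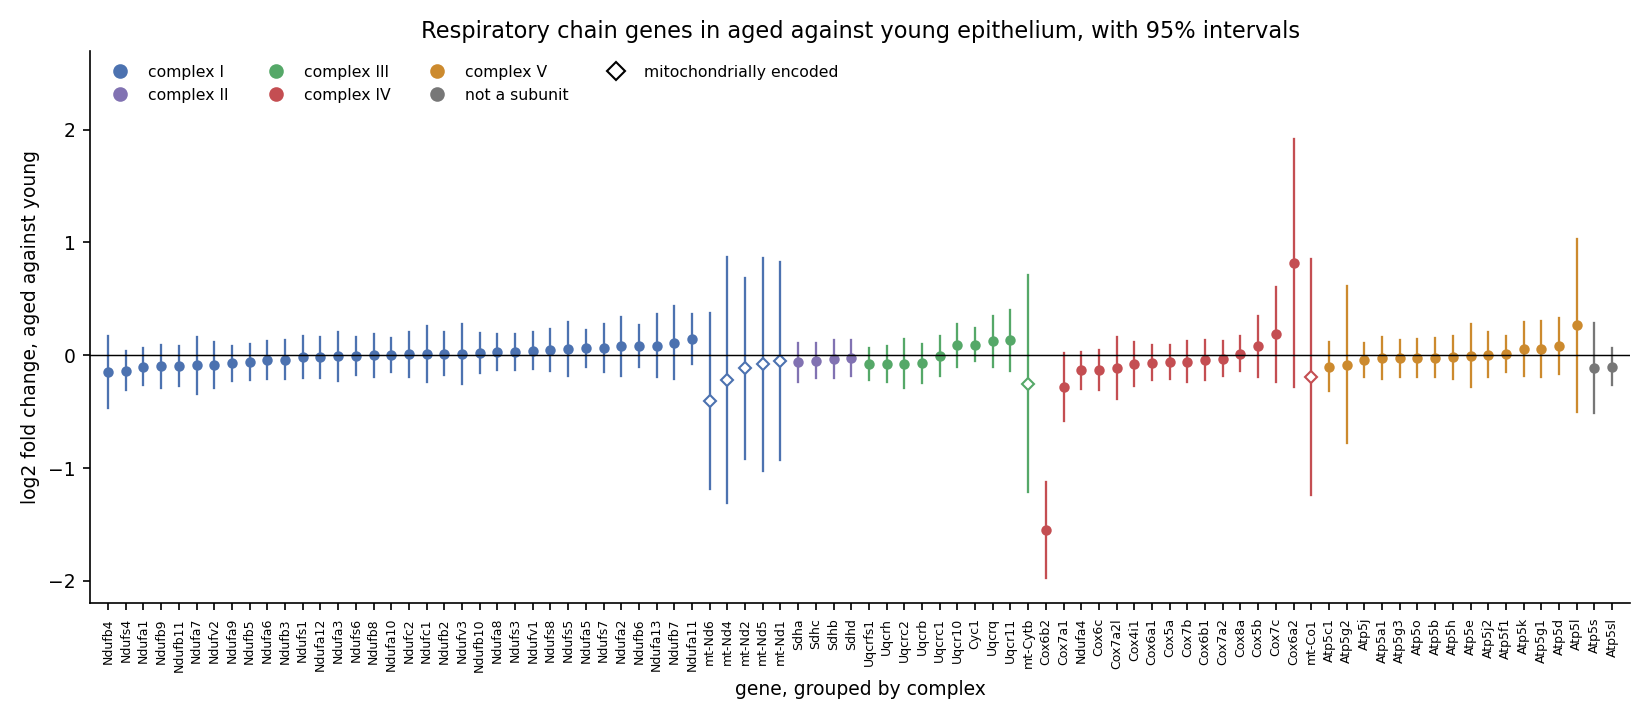
Log2 fold change (aged over young) of 86 of the 87 tested members with 95% intervals from the edgeR fit, grouped by complex, open diamonds for mitochondrially encoded genes. Cox6b2 at -1.55 stands below the rest, nuclear intervals are mostly narrow, and the 7 mitochondrial intervals are wide and span 0.

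Complex IV is the complex with tissue-restricted isoforms, and 15 of its 20 nuclear members were tested, with a median of -0.06. Cox6b2 (ENSMUSG00000051811, chromosome 7, 4751792 to 4753094, minus strand, GRCm38), protein-coding and enriched in testis, fell in aged mice. Its counts were 250, 335 and 192 in the young and 86, 70 and 117 in the aged libraries, which is 5.69, 5.66 and 4.61 CPM against 1.82, 1.54 and 2.09 CPM. Every aged library lay below every young one by more than a factor of 2. The log2 fold change was -1.55 ± 0.19 (SE, edgeR adjusted p = 0.00656), or 0.341-fold with a 95% interval of 0.254 to 0.458. The call held in all 16 other settings tried, with log2 fold changes from -1.67 to -1.45 and adjusted p from 4.29e-11 to 0.0428 over edgeR, DESeq2 and limma.

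The ubiquitous counterpart of the same subunit, Cox6b1, lies elsewhere on chromosome 7 (30616861 to 30626151, minus strand) and was not called. It held 530.6, 459.9 and 503.1 CPM in young and 507.5, 473.1 and 469.7 CPM in aged libraries, with overlapping groups (log2 -0.04 ± 0.08, edgeR adjusted p = 0.940). Per kilobase Cox6b1 stood at 693.0 and Cox6b2 at 3.22 CPM, so that Cox6b2 was a minor form of the subunit at both ages. Within 50 kb of Cox6b2 the annotation holds 11 genes with it, of which 8 were tested, and no other was called. The nearest tested neighbour, Kmt5c, a histone methyltransferase, stood at 122.6 against 122.4 CPM. Fam71e2, upstream on the same strand, held 12 counts in all. Cox6b2 shared no 50-base word and no exon with another annotated gene.

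Markers of secretory cells had negative fold changes as well. For comparison, 0.784% of all genes tested were called lower and 0.623% higher, and 48.2% lay below 0. All 5 tested Paneth cell markers were below 0 (1 called, Defa17), with summed levels of 6755 to 12475 CPM in young and 5168 to 5613 CPM in aged libraries. All 6 goblet cell markers were below 0 (1 called, Tff3), with sums of 15496 to 23062 and 13495 to 15009 CPM. The part of these cells in the Cox6b2 result was not tested. Striated muscle markers summed to 38.8 to 45.5 CPM in young and 36.4 to 58.4 CPM in aged libraries, nearly all of it Acta1, with 0 called. Absorptive enterocyte markers were below 0 in 8 of 10 with 0 called, at sums of 5093 to 6756 CPM in young and 3673 to 5637 CPM in aged libraries. RNAs retained in the nucleus, taken as a sign of RNA quality, summed to 172.8 to 273.5 CPM in young and 202.8 to 329.7 CPM in aged libraries. These sums overlapped between the ages. Of the 3 tested RNAs of that list Meg3 was called, at 1.13 ± 0.18 against 0.0203 ± 0.0022 CPM. Meg3 is a small part of the sums, and its call is not a measure of RNA quality.

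The other tissue-restricted forms were low or at 0. Cox7a1, the heart and muscle form of subunit 7A, was the only one of them above 5 CPM, at 33.4, 25.5 and 32.6 CPM in young and 26.6, 21.3 and 27.3 CPM in aged libraries. Its groups overlapped (log2 -0.28 ± 0.13, edgeR adjusted p = 0.605), and its common partner Cox7a2 stood at 225.4 ± 11.1 against 220.6 ± 4.85 CPM. Cox7a2l, a relative of subunit 7A that takes part in supercomplex assembly, stood at 109.0 ± 19.2 against 100.7 ± 6.57 CPM. Cox6a2, the muscle form of subunit 6A, held 5, 16 and 6 counts in young and 15, 8 and 26 in aged libraries and overlaps exons of Itgad on the opposite strand, so its counts are uncertain. The common form Cox6a1 stood at 488.2 ± 21.9 against 466.6 ± 16.4 CPM. Cox4i2 (lung form, 0, 3 and 2 against 0, 0 and 2 counts), Ndufa4l2 (a form raised by hypoxia, 1, 0 and 1 against 0, 0 and 2), Cox8b (0, 0 and 0 against 2, 0 and 0), Cox7b2 and Cox8c (0 in all 6) were not tested. Their common partners were abundant: Cox4i1 stood at 844.8 ± 77.1 against 800.1 ± 26.1 CPM, Ndufa4 at 238.1 ± 12.4 against 217.2 ± 11.3 CPM, Cox8a at 366.0 ± 8.37 against 369.3 ± 17.5 CPM and Cox7b at 271.3 ± 23.9 against 261.0 ± 7.32 CPM. None of these 4 was called. Cox6c stood at 169.0 ± 14.6 against 154.2 ± 2.34 CPM and was not called.

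**Figure D5:**
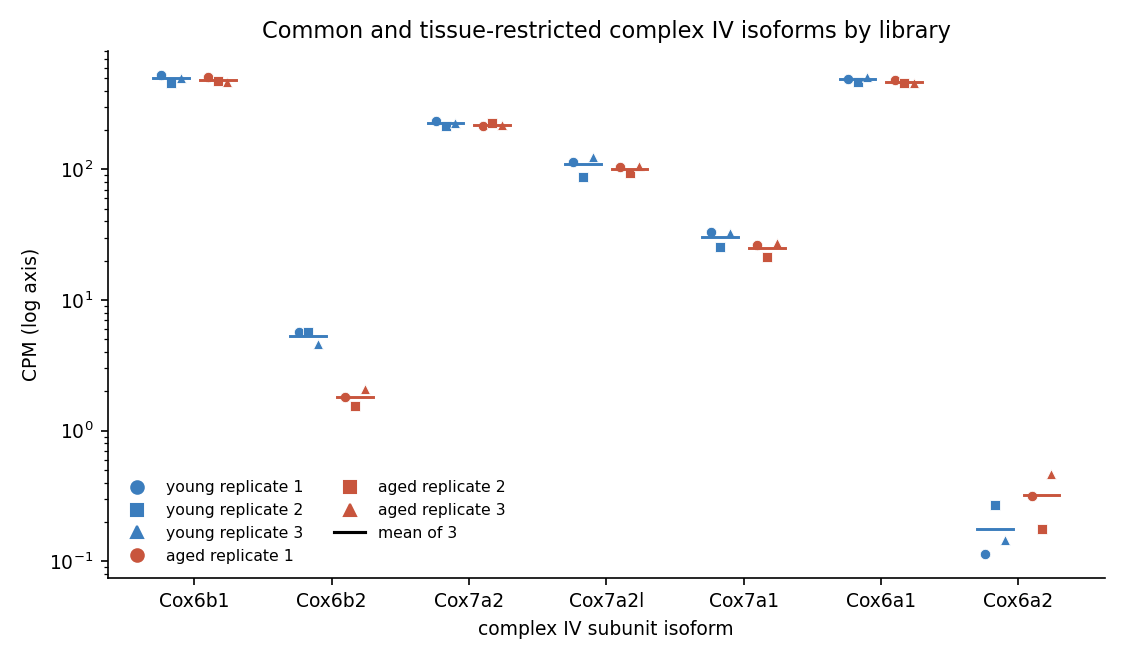
CPM (log axis) of common and tissue-restricted complex IV isoforms in each library, with lines at the mean of 3. Among these 7 genes, only Cox6b2 shows groups that stand apart, 4.61 to 5.69 CPM in young and 1.54 to 2.09 CPM in aged libraries.

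The 250 bases upstream of the start of Cox6b2, Cox6b1 and Sdhd (RefSeq, GRCm38.p6, all minus strand) are printed because the first is the member that fell, the second its counterpart that was not called, and the third an example with matches to 2 of the motifs searched in these bases. Capitals mark matches to the motifs of NRF1 and of GABP, nuclear factors known for regulating respiratory genes. The windows are chr7:4753095-4753344 for Cox6b2, chr7:30626115-30626364 for Cox6b1 and chr9:50603850-50604099 for Sdhd.
Cox6b2 upstream: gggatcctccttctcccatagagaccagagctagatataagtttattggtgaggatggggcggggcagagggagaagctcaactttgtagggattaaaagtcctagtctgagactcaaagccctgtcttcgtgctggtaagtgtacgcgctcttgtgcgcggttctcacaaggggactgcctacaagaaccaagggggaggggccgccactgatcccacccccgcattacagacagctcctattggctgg
Cox6b1 upstream: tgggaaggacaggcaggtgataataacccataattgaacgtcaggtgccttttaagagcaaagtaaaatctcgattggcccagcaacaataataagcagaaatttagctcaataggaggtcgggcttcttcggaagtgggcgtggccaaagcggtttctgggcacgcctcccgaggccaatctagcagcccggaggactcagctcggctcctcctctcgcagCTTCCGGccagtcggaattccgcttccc
Sdhd upstream: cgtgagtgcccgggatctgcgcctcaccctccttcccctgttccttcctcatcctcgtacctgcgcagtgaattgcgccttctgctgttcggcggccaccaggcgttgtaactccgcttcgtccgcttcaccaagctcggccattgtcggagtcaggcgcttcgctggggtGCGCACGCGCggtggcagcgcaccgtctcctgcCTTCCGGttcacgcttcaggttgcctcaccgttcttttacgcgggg

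In Cox6b1 the GABP motif lies 28 to 22 bases before the RefSeq start. In Sdhd an NRF1 motif lies 79 to 70 and a GABP motif 46 to 40 bases before its RefSeq start. The gene positions given for Cox6b1 above come from GENCODE M21 and reach 30626151. That lies within the printed window, so the GABP motif of Cox6b1 falls inside the gene as annotated there. The upstream window of Cox6b2 held none of the 4 motifs searched, which says only that these letters are not there. Both strands of windows from 250 bases before to 50 after the start were searched for the motifs of NRF1 and YY1, for CCGGAAG (GABP) and for TCAAGGTCA (the estrogen-related receptors), none of which contains another. Windows were found for 69 of the 85 nuclear symbols. The NRF1 motif occurred in 17 of the 69 (24.6%), beside 5.19% of 27025 genes with a window. GABP occurred in 16 (23.2%, beside 9.93%), YY1 in 6 (8.70%, beside 0.995%) and the estrogen-related receptor motif in 2 (2.90%, beside 0.466%). At least 1 of the 4 occurred in 47.8% of the members and 15.0% of all genes. By complex, NRF1 matches were found in 6 of 14 ATP synthase genes, 7 of 31 complex I genes, 2 of 3 complex II genes, 1 of 5 complex III genes and 1 of 14 complex IV genes. These matches describe the sequences and are not binding sites measured here.

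The small differences among nuclear members had a modest correlation with base composition. Over the 75 nuclear members of at least 5 CPM, the log2 fold change and the GC content of the transcript had a Pearson correlation of 0.37 and a Spearman correlation of 0.39, across genes that share the 6 libraries. The 38 genes with the lower GC content had a median of -0.04 and the 37 with the higher 0.00. The difference between aged replicates 1 and 3, of the same age, had a Pearson correlation of 0.49 with GC content over the same genes, and that between young replicates 3 and 2 one of 0.18 (Spearman 0.45 and 0.29). Within each age these 2 libraries had the highest and the lowest median level of the nuclear members. No other pair of libraries was examined. The part of base composition in the fold changes was not tested.

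In none of 13 further lists of genes that build and serve the chain was a gene called in either direction by edgeR, DESeq2 or limma. Over all genes tested, edgeR called 0.784% lower and 0.623% higher. Of the 202 tested genes of the lists, 5 (2.48%) had an unadjusted edgeR p below 0.05, beside 9.23% of all genes tested. Assembly factors of complexes I (14 tested), III (6), IV (21) and V (4) had medians of 0.03, 0.02, 0.02 and 0.00, and those of complex II (4) -0.10. Coa5 and Coa3, the most abundant complex IV assembly factors, stood at 135.0 ± 2.15 against 133.7 ± 4.76 CPM and 111.7 ± 2.59 against 113.9 ± 5.67 CPM. Electron carriers and ubiquinone synthesis (12 tested) had a median of 0.01, with Coq9 at 148.6 ± 10.2 against 145.0 ± 3.70 CPM. Citrate cycle genes (16 tested) had a median of -0.04, with 12 below 0, and Cs, citrate synthase, stood at 718.2 ± 9.65 against 780.2 ± 16.7 CPM (log2 0.12 ± 0.07).

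Factors that act on mitochondrial DNA and its transcripts were likewise not called. Genes of mitochondrial DNA maintenance and transcription (15 tested) had a median of -0.04. Polg, the most abundant of them, stood at 123.7 ± 6.76 against 124.2 ± 3.93 CPM. Tfam, which packages and transcribes mitochondrial DNA, held 106.5, 100.4 and 107.4 CPM in young and 93.7, 105.2 and 109.8 CPM in aged libraries. The part of Tfam in the spread of the mitochondrial messenger RNAs between libraries was not tested. Stability and processing factors (17 tested) had a median of 0.03. Lrpprc, which stabilises mitochondrial messenger RNA, held 245.8, 243.9 and 242.3 CPM in young and 228.2, 242.8 and 270.9 CPM in aged libraries. Tbrg4, the next most abundant, held 198.4, 199.5 and 207.3 CPM in young and 224.5, 221.8 and 224.2 CPM in aged libraries. Its aged values lay above all young ones, as in 6.3% of all genes tested (log2 0.15 ± 0.06 SE, edgeR adjusted p = 0.501). Mitochondrial ribosomal proteins (76 tested) lay above 0 in 58 genes, with a median of 0.04, and Mrpl12 stood at 268.3 ± 11.7 against 295.1 ± 28.0 CPM (log2 0.14 ± 0.08, edgeR adjusted p = 0.748).

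The 10 regulators of respiratory genes had a median of 0.05 and 0 calls. Esrra, the estrogen-related receptor alpha, stood at 227.9 ± 18.4 against 234.8 ± 9.10 CPM, and Pprc1, a coactivator of the PGC-1 family, at 169.3 ± 39.5 against 188.6 ± 5.59 CPM. Ppargc1a, the coactivator PGC-1 alpha, is named outside the rule, after its values were seen. It held 28.3, 24.3 and 20.8 CPM in young and 20.4, 17.9 and 19.5 CPM in aged libraries. The aged values lay below all young ones, as in 7.49% of all genes tested. The log2 difference of -0.34 ± 0.12 (SE) was not called (edgeR adjusted p = 0.350).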

How the data were processed

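The values deposited by the authors are raw read counts for each gene, seen from whole numbers and column totals that differ. GRCm38 is the build in the submitters' processing notes, which also name STAR, HISAT2 2.1.0, featureCounts 1.6.4 and DESeq2 1.28.1 among other tools, without their roles. The sources used here do not give the annotation release, the strand setting or the handling of reads with several matches, so counts of genes with copies or overlaps are uncertain. Members and lists were chosen with earlier results of these data known. Genes passing filterByExpr of edgeR 4.0.16 (minimum count 10), 14923 in all, were scaled with TMM and tested with the robust quasi-likelihood test (R 4.3.3), age as the only term. Standard errors are the fold change over the square root of F. The test was tried on simulated data. Alternatives used DESeq2 1.42.0, limma 3.58.1, sva 3.50.0, other scalings and filters, and leaving out each library. Positions, lengths and shared words come from GENCODE M21, where 45229 gene IDs were found and 849 were not. No 2 libraries of the same age agreed within sampling noise (chi-square per gene at least 27.2). Named were called members, all mitochondrial genes, the 2 most abundant per complex, the Sdh genes and complex IV isoforms. Named too were the 5 most positive and 5 most negative nuclear members of at least 5 CPM, and those whose groups did not overlap. Of some further lists abundant genes were named, and of others none. The values of 1 tested member are not reported here. The other members mentioned were picked for the sequence they share.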

Additional observations from a re-analysis of the deposited data

How the results depend on the processing

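The call of Cox6b2 and the count of 1 called member held under all 16 alternatives. No paired analysis was possible because the labels give no replicate numbers, and the numbers used follow the order of the records. The median log2 fold change of nuclear complex III genes (-0.0042 as reported) was 0.052 with 1 surrogate variable and ran from -0.067 (without young replicate 2) to 0.045 (without young replicate 3). The medians and sums of the other complexes kept within 1 standard deviation of the replicates. With 1 surrogate variable the log2 fold changes of Atp5a1 (0.019), Atp5b (0.0072), Cox7a2l (0.037), Sdhb (0.011) and Sdhd (0.015) changed sign, as did Cox8a (-0.0028) with upper-quartile factors. Leaving out 1 library at a time gave ranges across 0 for mt-Nd1 (-0.33 to 0.36), mt-Nd2 (-0.37 to 0.21), mt-Nd4 (-0.56 to 0.25), mt-Nd5 (-0.38 to 0.37), mt-Nd6 (-0.66 to 0.043), mt-Cytb (-0.53 to 0.20) and mt-Co1 (-0.49 to 0.33). It did so too for Sdhd (-0.065 to 0.0099), Cox6b1 (-0.10 to 0.0054), Atp5b (-0.053 to 0.0023), Atp5a1 (-0.080 to 0.017), Sdhb (-0.10 to 0.015), Cox7a2 (-0.076 to 0.00021), Cox8a (-0.011 to 0.047) and Ndufb7 (-0.015 to 0.24). The cause was not tested. None of these genes passed the threshold in any setting. Without young replicate 2, 1 of the 10 regulators, Pprc1, was called. The precision of the mitochondrial genes is limited by the spread between the 3 libraries of each age, not by their depth. Cox6a2 and the untested isoforms are limited by counts below 30 per library.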
